A study of Homo sapiens with 15 samples.

Results

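ATGL, the lipase encoded by PNPLA2, and the enzymes and regulators that work with it were followed across 5 lines made from C4-2, prostate cancer cells of LNCaP origin that grow without androgen (castration-resistant). The group was set by name and holds 7 of the 20806 genes in the deposited tables, namely PNPLA2, ABHD5, G0S2, LIPE, MGLL, PNPLA3 and PNPLA4. All 7 have an entry, and 6 passed the filter on low counts. G0S2 did not pass and was not tested.

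Poly(A) RNA was sequenced in 3 libraries per line, 15 in all. Scramble is the control line. In KO the gene PNPLA2 was knocked out, and the other lines carry the same knockout with an ATGL protein added back, wild type (KO_WT), S47A (KO_S47A) or S404A (KO_S404A). The submitters describe S47A as inactive in lipolysis. All lines were grown in RPMI1640 with 5 mM glucose and 5% dialyzed serum, and all carry either the knockout or the scramble control, so there is no untreated parent line. The sources used here do not give how the knockout was made, whether a line is 1 clone or a pool, the promoter and untranslated parts of the added constructs, or the codons used for the mutations. The labels do not say that the libraries of a line are separate cultures, so a p-value measures the spread between these samples alone, and that spread may be technical.

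Stored triglyceride is taken apart one fatty acid at a time. ATGL removes the first fatty acid, hormone-sensitive lipase (LIPE) acts mainly on the diglyceride that remains, and monoglyceride lipase (MGLL) splits the last bond and leaves glycerol. ABHD5 (CGI-58) is the coactivator of ATGL and is held by perilipins on the droplet surface until lipolysis is stimulated, and G0S2 is a small protein that binds and inhibits ATGL. PNPLA3 and PNPLA4 share the patatin-like catalytic fold of ATGL. PNPLA3 also binds ABHD5, and PNPLA4 has been described as a lipase and retinyl ester hydrolase.

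The enzymes share a short catalytic motif, glycine, any residue, serine, any residue, glycine, whose serine is the nucleophile of the reaction. The S47A protein replaces this serine in ATGL. The stretches below are reference coding sequence around the motif, read from GENCODE release 29 on GRCh38, with the 5 codons of the motif in capitals. They are shown because the motif is the part of ATGL that the S47A line changes and that its relatives have in common.
PNPLA2 codon 47: atctacGGCGCCTCGGCCGGGgcgctc
PNPLA3 codon 47: ttgttcGGCGCTTCGGCCGGGgcgttg
PNPLA4 codon 43: ttcgctGGGGCGTCTGCGGGAtcgttg
MGLL codon 122: cttctgGGCCACTCCATGGGAggcgcc
LIPE codon 725: cttgcgGGGGACAGTGCAGGCgggaac
ABHD5 codon 153: ttgcttGGGCACAACCTAGGTggattc
The number is that of the middle codon, a serine in the first 5 sequences. In ABHD5 the middle codon is AAC, for asparagine, in the place of the serine, and ABHD5 is known to have no lipase activity of its own. MGLL holds a second match of the motif at codon 83. A match is a description of these letters.

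The 2 mutated positions of ATGL lie far apart in the coding sequence of 504 codons. The codon that is replaced is in capitals, shown with the reference serine and not with the mutated codon.
PNPLA2 codon changed in S47A: atctacggcgccTCGgccggggcgctc
PNPLA2 codon changed in S404A: cgccgcgtccagTCGctgccgtccgtg
Codon 47 is at chr11:819857-819859 on the plus strand, in exon 2 of 10, and the codon changed in S404A is at chr11:824557-824559, in exon 10 of 10, the last exon. Both codons are coding exon sequence. The serine lost in S404A is a regulatory phosphorylation site in the C-terminal part of ATGL and not part of the catalytic motif. The sources used here do not give the genome build behind the deposited counts. The counts are per gene, so they do not show which codon a transcript carried or whether it came from the chromosome or from an added construct.

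Counts in genes totalled 40846694 to 64345775 per library. Unassigned reads made up 13.2% to 20.6%. Of all genes, 14246 passed the low count filter and were tested together with edgeR's quasi-likelihood test. Levels are CPM, read counts scaled to the TMM-adjusted size of the library, and a gene is called where the Benjamini-Hochberg adjusted p, taken over all 14246 genes of a comparison, is under 0.05. The prostate luminal markers KLK3, KLK2, FOLH1, TMPRSS2, HOXB13 and STEAP2 were at 218 CPM or more in every library. All 6 adipocyte markers stayed under 1 CPM, with ADIPOQ and ADRB3 at 0 in all 15 libraries. The basal markers TP63 and KRT5 and the hepatocyte gene ALB were also at 0. The basal marker KRT14 was at 1.38 to 4.63 CPM. The hepatocyte genes APOA1 and TTR were low but present, at 0.254 to 1.07 CPM and 0.556 to 2.21 CPM. Of the markers of stroma, endothelium and blood, COL1A1 reached 9.76 to 23.2 CPM and VWF 5.06 to 14.7 CPM, and the other 4 stayed under 1 CPM. In a fit with the line as a term, the libraries numbered 3 differed from those numbered 1 and 2 in 46.1% of all tested genes. That is 1 difference shared by all lines and not a result for each line. Calls are also given from a fit without the libraries numbered 3. This does not remove differences between libraries 1 and 2, which were largest in KO_S404A.

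PNPLA2 itself moved in all lines. In Scramble its 3 libraries were at 54.3, 47.05 and 45.3 CPM, a mean of 48.9 ± 4.76 CPM (SD, n = 3). In KO they were at 13.0, 11.9 and 9.11 CPM, a mean of 11.3 ± 1.99 CPM (SD, n = 3), so the knockout line kept 23.2% of the control level. The groups did not overlap. PNPLA2 was 4.32-fold lower in KO, a log2 fold change of -2.11 (SE 0.20, adjusted p = 3.54e-05 with edgeR). In that comparison 2.69% of all tested genes were called (0.969% higher, 1.72% lower), and of the members 2 were, PNPLA2 lower and MGLL higher. The counts behind the KO libraries were 632, 658 and 487, far above the limit of 3 counts that a count of 0 would allow. The RNA left in KO is a level of transcript and does not show whether an intact protein can be made from it. In bulk RNA, fewer cells with the transcript and less transcript per cell cannot be told apart.

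In the addback lines PNPLA2 was far above both the knockout and the control, and each line had its own level. The KO_WT libraries were at 212.7, 206.6 and 240.5 CPM (mean 219.9 ± 18.1, SD, n = 3). The KO_S47A libraries were at 112.8, 110.2 and 164.5 CPM (mean 129.2 ± 30.6, SD, n = 3). The KO_S404A libraries were at 303.2, 443.3 and 492.8 CPM (mean 413.1 ± 98.3, SD, n = 3). From low to high the order was KO, Scramble, KO_S47A, KO_WT and KO_S404A, and no neighbouring lines overlapped in their libraries.

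**Figure D1:**
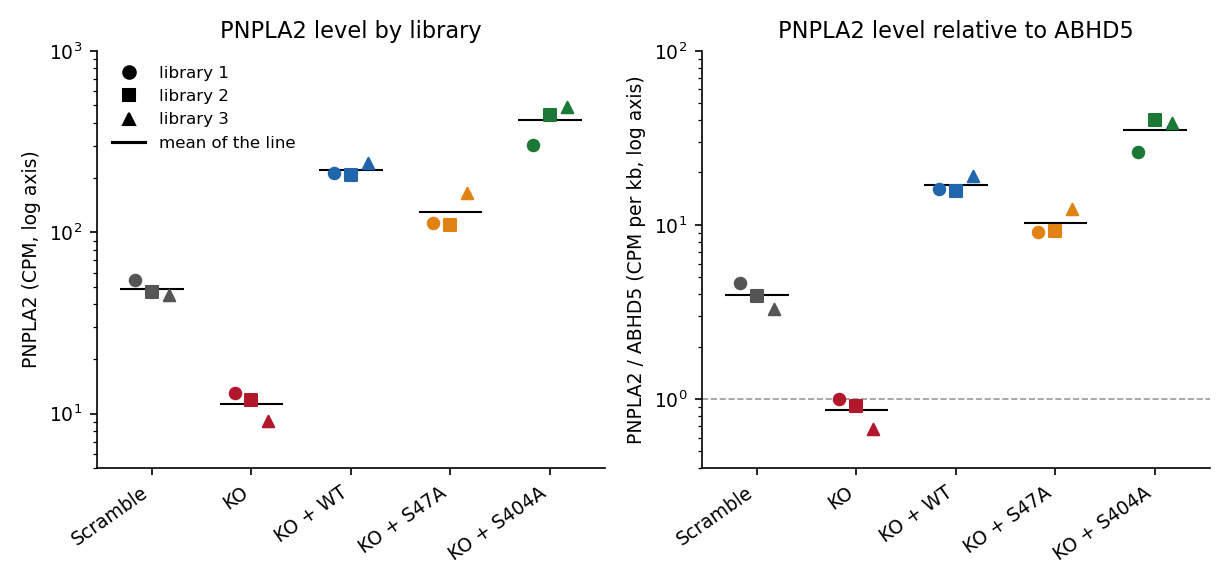
Left, PNPLA2 level in CPM on a log axis for each of the 15 libraries, with 3 libraries per line marked by library number and the mean as a bar. Right, the ratio of PNPLA2 to ABHD5 in CPM per kb on a log axis, with a dashed line at equal levels. The KO libraries lie between 9.11 and 13.0 CPM, below all others, and the KO_S404A libraries between 303.2 and 492.8 CPM, above all others.

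Against KO, PNPLA2 rose 19.4-fold in KO_WT, a log2 fold change of 4.28 (SE 0.22, adjusted p = 3.49e-07). It rose 11.4-fold in KO_S47A, by 3.51 (SE 0.21, adjusted p = 2.99e-06), and 36.5-fold in KO_S404A, by 5.19 (SE 0.23, adjusted p = 4.71e-08). PNPLA2 was the member called in each of these 3 comparisons. Few genes were called in them at all, 4 of 14246 (0.0281%) for KO_WT, 1 (0.00702%) for KO_S47A and 3 (0.0211%) for KO_S404A. For KO_S47A that gene is PNPLA2. These adjusted p-values are from edgeR, and the comparisons share the KO libraries. With the library number as a block, the members called for KO_S47A minus KO were 2, PNPLA2 and PNPLA4, but then 22.1% of all genes were called.

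Against Scramble, PNPLA2 was 4.50-fold higher in KO_WT, 2.64-fold higher in KO_S47A and 8.45-fold higher in KO_S404A. The log2 fold changes were 2.17 (SE 0.20, adjusted p = 2.71e-05), 1.40 (SE 0.20, adjusted p = 0.00131) and 3.08 (SE 0.21, adjusted p = 1.17e-06 with edgeR). All 9 addback libraries lay above all 3 control libraries, so none of the added genes brought PNPLA2 back to the control level. The share of all tested genes called was 3.47% for KO_WT, 3.82% for KO_S47A and 3.11% for KO_S404A, of which 1.51%, 1.59% and 1.34% were higher. Of the members, 1 was called for KO_WT and for KO_S47A, PNPLA2, and 2 for KO_S404A, PNPLA2 and MGLL. These calls of PNPLA2 and its direction were the same whichever library was left out. Without the libraries numbered 3, the log2 fold changes of PNPLA2 against Scramble were -2.03 (KO), 2.05 (KO_WT), 1.14 (KO_S47A) and 2.88 (KO_S404A), all called, in fits that called 5.37%, 5.11%, 15% and 6.84% of all genes. Against KO they were then 4.08 for KO_WT, 3.17 for KO_S47A and 4.91 for KO_S404A, all called, beside 0.3%, 21.6% and 2.81%.

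The addback lines also differed from each other in PNPLA2, to an extent that the test across all genes passed in 1 of 3 pairs. PNPLA2 in KO_S404A was 3.20-fold that in KO_S47A, a log2 difference of 1.68 (SE 0.20, 95% interval 1.25 to 2.10, adjusted p = 0.0109 with edgeR), and it was the 1 gene called there (0.00702%). That call ended without KO_S404A library 2 (adjusted p = 0.0969), KO_S404A library 3 (0.051), KO_S47A library 1 (0.164) or KO_S47A library 2 (0.158), and when the fit held these 2 lines alone (0.922), while the log2 difference stayed between 1.53 and 1.87 in the fits that left out 1 library. Without the libraries numbered 3 it was 1.74 and was called (adjusted p = 0.00259 with edgeR, 0.00697% of all genes). PNPLA2 in KO_S404A against KO_WT differed by 0.91 (95% interval 0.49 to 1.32, unadjusted p = 0.000355, adjusted p = 0.547 with edgeR). PNPLA2 in KO_S47A against KO_WT differed by -0.77 (95% interval -1.18 to -0.35, unadjusted p = 0.00142, adjusted p = 0.998 with edgeR), and the libraries of each pair did not overlap. In both of these pairs edgeR called 0 of 14246 genes (0%) and 0 members, with 1 member, PNPLA2, at an unadjusted p under 0.05. DESeq2 called 0 members in them too and 4 genes (0.0281%, KO_S47A minus KO_WT) and 0 genes (0%, KO_S404A minus KO_WT) in all.

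ABHD5, the coactivator, held nearly the same level in every library. Over all 15 libraries ABHD5 ranged from 26.9 to 33.4 CPM, with means of 30.3 ± 2.72 CPM for Scramble, 31.8 ± 0.98 for KO, 31.6 ± 0.82 for KO_WT, 30.4 ± 1.66 for KO_S47A and 28.5 ± 2.01 for KO_S404A (SD, n = 3 each). KO minus Scramble was 0.07 on the log2 scale (SE 0.09, 95% interval -0.12 to 0.26, adjusted p = 0.841 with edgeR), and ABHD5 was called in 0 of the 10 comparisons between lines. The narrow interval makes ABHD5 the member with the tightest estimate.

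Since ABHD5 varied by 1.24-fold at most and PNPLA2 by 54.1-fold, the balance between the lipase and its coactivator followed PNPLA2. Per length of gene model, the ratio of PNPLA2 to ABHD5 was 4.61, 3.93 and 3.28 in the Scramble libraries and 1.01, 0.92 and 0.67 in the KO libraries. It averaged 16.9 ± 1.84 in KO_WT, 10.2 ± 1.85 in KO_S47A and 34.9 ± 7.48 in KO_S404A (SD, n = 3 each), against 3.94 ± 0.67 in Scramble and 0.86 ± 0.17 in KO. The lines did not overlap in this ratio. It is a ratio of transcripts, computed with the gene length implied by the deposited tables, which need not be the length of an added transcript.

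G0S2, the ATGL inhibitor, was close to absent from these libraries. It had 6 counts in all, with 4 in KO library 2 and 1 each in KO_S404A libraries 1 and 2, and 0 in the other 12 libraries. A count of 0 allows up to 3 counts, which is 0.0450 to 0.0751 CPM depending on the library, and this limit covers counting error only. No difference between lines could be detected at this depth. G0S2 lies across an antisense gene on the other strand.

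LIPE, hormone-sensitive lipase, was low throughout. Its libraries were at 2.38, 2.51 and 1.74 CPM in Scramble and at 1.81, 2.23 and 2.06 CPM in KO. The lowest of all was KO_S404A library 2 with 1.28 CPM and the highest KO_WT library 2 with 2.87 CPM, and all lines overlapped. KO minus Scramble was -0.12 (SE 0.24, 95% interval -0.63 to 0.40, adjusted p = 0.915 with edgeR), an interval that is wider than that of ABHD5, with 85 to 127 counts behind each value. LIPE was called in 0 of 10 comparisons, and LIPE-AS1 overlaps it on the opposite strand.

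**Figure D2:**
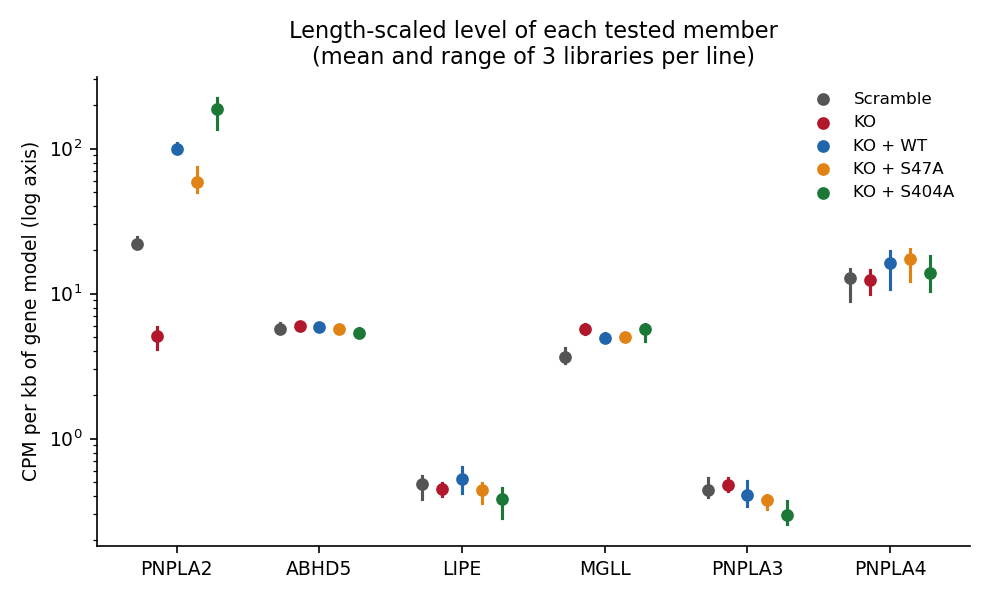
Level of the 6 tested members in CPM per kb of gene model on a log axis, with the mean of 3 libraries as a point and their range as a line for each of the 5 lines. PNPLA2 spans 4.12 to 223 CPM per kb, while LIPE and PNPLA3 lie below 1 in every line.

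Set side by side per length of gene model, the control cells held PNPLA2 at 22.1 ± 2.2 CPM per kb, PNPLA4 at 12.8 ± 3.4, ABHD5 at 5.66 ± 0.51, MGLL at 3.66 ± 0.49, LIPE at 0.49 ± 0.09 and PNPLA3 at 0.44 ± 0.08 (SD, n = 3 each). Their libraries overlapped for LIPE and PNPLA3 and for no other neighbours in that order. In KO, PNPLA2 at 5.11 ± 0.90 CPM per kb stood beside ABHD5 at 5.94 ± 0.18 and MGLL at 5.74 ± 0.48, with overlapping libraries. Thus the transcript of the first lipase of the chain was the most abundant of the 6 in Scramble and was level with those of ABHD5 and MGLL in KO, while PNPLA4 was the most abundant there, at 12.5 ± 2.3 CPM per kb.

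MGLL, which finishes the breakdown, was higher in every knockout-derived library than in every control library. The Scramble libraries were at 20.1, 19.4 and 24.7 CPM (mean 21.4 ± 2.85, SD, n = 3) and the KO libraries at 33.6, 30.8 and 36.3 CPM (mean 33.5 ± 2.78, SD, n = 3). KO_WT had 28.1, 27.7 and 31.1 CPM, KO_S47A had 28.1, 28.7 and 31.4 CPM, and KO_S404A had 27.4, 35.9 and 36.3 CPM. The 12 knockout-derived libraries thus ran from 27.4 to 36.3 CPM, above the highest control library at 24.7 CPM.

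Tested against Scramble, MGLL rose 1.57-fold in KO, a log2 fold change of 0.65 (SE 0.13, adjusted p = 0.0119 with edgeR), and 1.55-fold in KO_S404A, by 0.63 (SE 0.13, adjusted p = 0.0133 with edgeR). The difference was 0.44 in KO_WT (SE 0.13, 95% interval 0.17 to 0.71, adjusted p = 0.0812) and 0.46 in KO_S47A (SE 0.13, 95% interval 0.19 to 0.73, adjusted p = 0.0608), and neither was called by edgeR. With the library number as a block both passed, at adjusted p = 0.00711 for KO_WT and 0.00394 for KO_S47A, so that 2 members were called for KO_WT minus Scramble (10% of all genes) and 3 for KO_S47A minus Scramble (19.5%). DESeq2 called MGLL in both as well, at 0.0398 and 0.0256 (6.09% and 7.67% of all genes). Without the libraries numbered 3 MGLL was called in all 4 lines, at adjusted p = 0.00887 in KO, 0.0459 (KO_WT), 0.0198 (KO_S47A) and 0.01 (KO_S404A). The call in KO ended without Scramble library 1 (0.0717), Scramble library 2 (0.0776) or KO library 3 (0.0648), and that in KO_S404A without Scramble library 1 (0.081), Scramble library 2 (0.0805) or KO_S404A library 2 (0.0558). It also ended for KO_S404A in a fit of these 2 lines alone (0.163). In the other direction, without KO_S404A library 1 MGLL was called in KO_WT (0.038) and KO_S47A (0.0262), and without Scramble library 3 in KO_S47A (0.0486).

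Between the addback lines and KO, MGLL was not called. KO_WT minus KO was -0.21 (95% interval -0.48 to 0.06, adjusted p = 0.63), KO_S47A minus KO was -0.19 (95% interval -0.46 to 0.08, adjusted p = 0.397) and KO_S404A minus KO was -0.02 (95% interval -0.28 to 0.25, adjusted p = 0.984 with edgeR), and the ranges of the libraries overlapped in each. Compared by library number, MGLL was lower than in KO in 3 of 3 pairs for KO_WT and in 3 of 3 for KO_S47A. With the library number as a block these differences were -0.21 (adjusted p = 0.19) and -0.19 (adjusted p = 0.151 with edgeR), again not called. All 4 comparisons with Scramble rest on the same 3 control libraries. The control line also stood apart in its basal list, which is KRT14 alone since TP63 and KRT5 were at 0. The list summed to 4.25 to 4.63 CPM there, against 1.38 to 2.45 CPM in the knockout-derived libraries. The 6 luminal markers summed to 6375.3 to 7083 CPM in the control and 4377 to 6374.7 CPM in the knockout-derived libraries. In that sum the lowest control library was level with the highest KO_S47A library. Their part in the MGLL result was not tested. KBTBD12 and SEC61A1 overlap MGLL on the opposite strand in the reference annotation, and the sources used here do not give the strand setting of the counting.

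**Figure D3:**
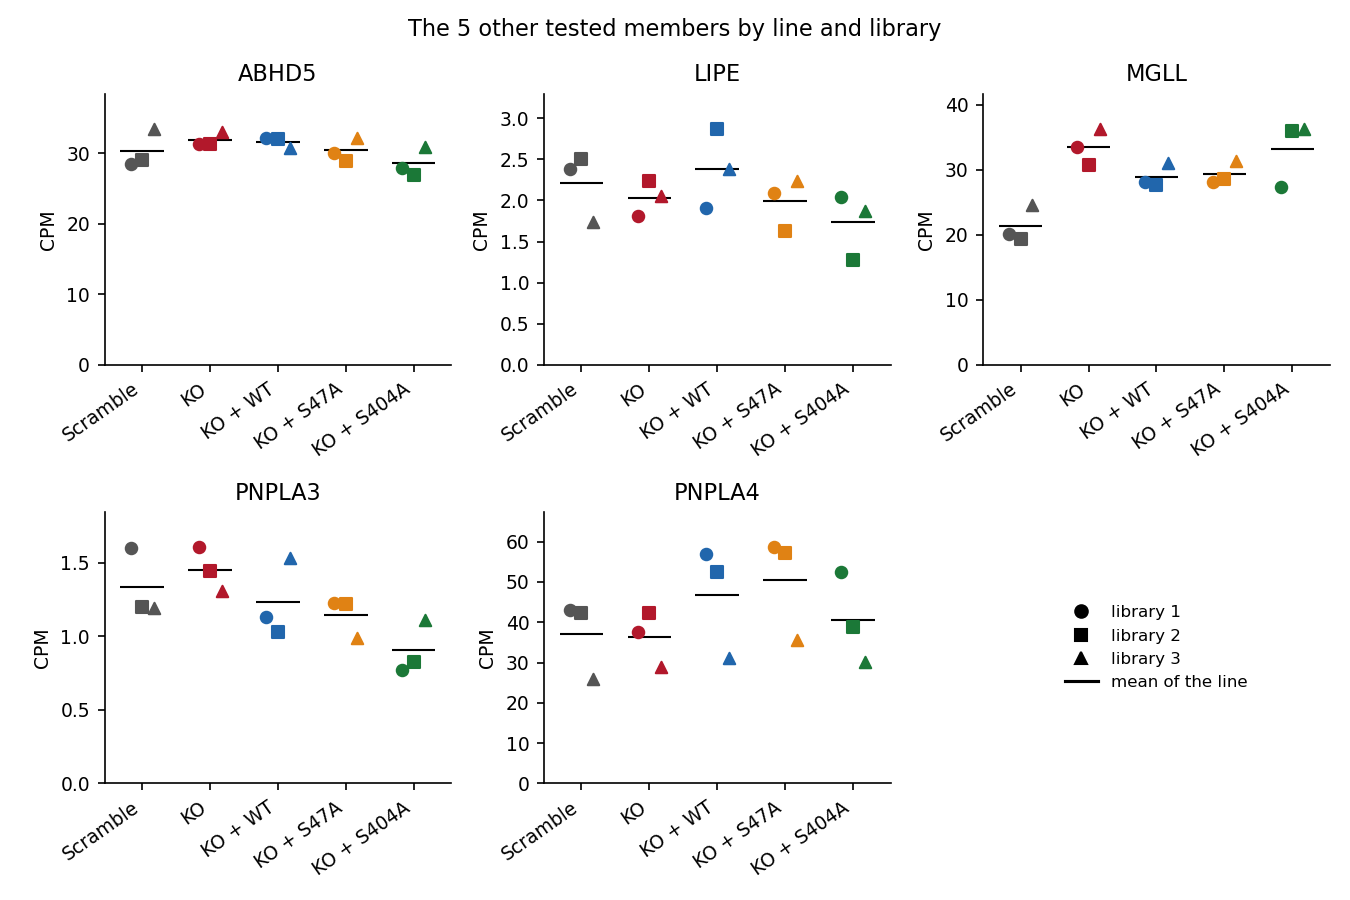
CPM of ABHD5, LIPE, MGLL, PNPLA3 and PNPLA4 in each of the 15 libraries, with library numbers as symbols and the mean of each line as a bar, on axes that start at 0. MGLL is lowest in the 3 Scramble libraries, and for PNPLA4 library 3 is the lowest of its line in 5 of 5 lines.

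PNPLA3, the closest relative of ATGL in the group and known for a variant tied to fatty liver, was measured at under 2 CPM. Its libraries were at 1.60, 1.20 and 1.19 CPM in Scramble, at 1.60, 1.44 and 1.31 CPM in KO and at 0.77, 0.83 and 1.11 CPM in KO_S404A. Those of KO_S404A lay below all of Scramble and of KO, and overlapped those of KO_WT (1.03 to 1.53 CPM) and KO_S47A (0.99 to 1.22 CPM). The KO_S47A libraries also lay below all of KO. The share of all tested genes whose libraries separate in this way is not given here. KO minus Scramble was 0.13 (SE 0.25, 95% interval -0.40 to 0.65, adjusted p = 0.911 with edgeR). KO_S404A minus KO was -0.68 (95% interval -1.22 to -0.15, unadjusted p = 0.0152, adjusted p = 0.898) and KO_S404A minus Scramble was -0.56 (95% interval -1.09 to -0.03, unadjusted p = 0.0414, adjusted p = 0.292 with edgeR). PNPLA3 was called in 0 of 10 comparisons, and 43 to 80 counts lie behind each value.

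PNPLA3 lies on chromosome 22, whose genes as a group were lower in the knockout-derived lines. The 369 other tested genes of that chromosome had a median log2 fold change against Scramble of -0.32 (KO), -0.39 (KO_WT), -0.33 (KO_S47A) and -0.28 (KO_S404A), against 0.03, 0.02, 0.02 and 0.03 on the other chromosomes. PNPLA3 itself was at 0.13, -0.11, -0.22 and -0.56. With the chromosome's median taken off, PNPLA3 was at 0.45, 0.27, 0.12 and -0.28 in the same order, with adjusted p between 0.529 and 0.824, so the sign for KO_WT and KO_S47A depends on it. The shift of the chromosome and the lines cannot be told apart. SAMM50 overlaps PNPLA3 on the same strand in the reference, and how reads in the overlap were counted was not examined.

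PNPLA4 differed by library number within every line. In the libraries numbered 1, 2 and 3 it was at 42.9, 42.4 and 25.8 CPM in Scramble and at 37.6, 42.2 and 28.9 CPM in KO. It was at 56.9, 52.4 and 31.1 CPM in KO_WT, at 58.6, 57.1 and 35.5 CPM in KO_S47A and at 52.5, 38.9 and 30.1 CPM in KO_S404A. Library 3 was the lowest in 5 of 5 lines, at 0.569 to 0.724 times the mean of the other 2. Compared by number, KO_WT and KO_S47A were each above Scramble and above KO in 3 of 3 pairs.

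In a fit with the line as a term, library 3 minus libraries 1 and 2 was -0.66 for PNPLA4 (SE 0.07, 95% interval -0.81 to -0.51, adjusted p = 2.3e-06 with edgeR). MGLL went the other way, with library 3 the highest in 5 of 5 lines and a difference of 0.20 (SE 0.06, 95% interval 0.07 to 0.33, adjusted p = 0.0133). The MGLL call ended without Scramble library 3 (0.0595). So 2 of the 6 tested members were called, 1 in each direction, beside 46.1% of all tested genes (22.4% higher, 23.7% lower), a share close to the background. The sources used here do not say what the library number stands for.

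Between lines, PNPLA4 was called in 0 of 10 comparisons by edgeR in the fit without a block and with all libraries. KO minus Scramble was -0.03 (SE 0.28, 95% interval -0.63 to 0.57, adjusted p = 0.982). The sign turned to 0.07 without Scramble library 1, to 0.06 without Scramble library 2 and to 0.11 without KO library 3. KO_S47A minus KO was 0.48 (95% interval -0.13 to 1.08, adjusted p = 0.36) and KO_S47A minus Scramble 0.45 (95% interval -0.16 to 1.05, adjusted p = 0.411). With the library number as a block these became 0.45 (adjusted p = 0.00839) and 0.45 (adjusted p = 0.00838). Without the libraries numbered 3 they were 0.53 (adjusted p = 0.0159) and 0.44 (adjusted p = 0.0444 with edgeR), in fits that called 21.6% and 15% of all genes. PNPLA4 was thus called in KO_S47A only in fits that took the library number into account. These fits called a large share of all genes. The log2 difference itself was above 0 in every fit that left out 1 library, at 0.34 to 0.68 against KO and 0.24 to 0.63 against Scramble.

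**Figure D4:**
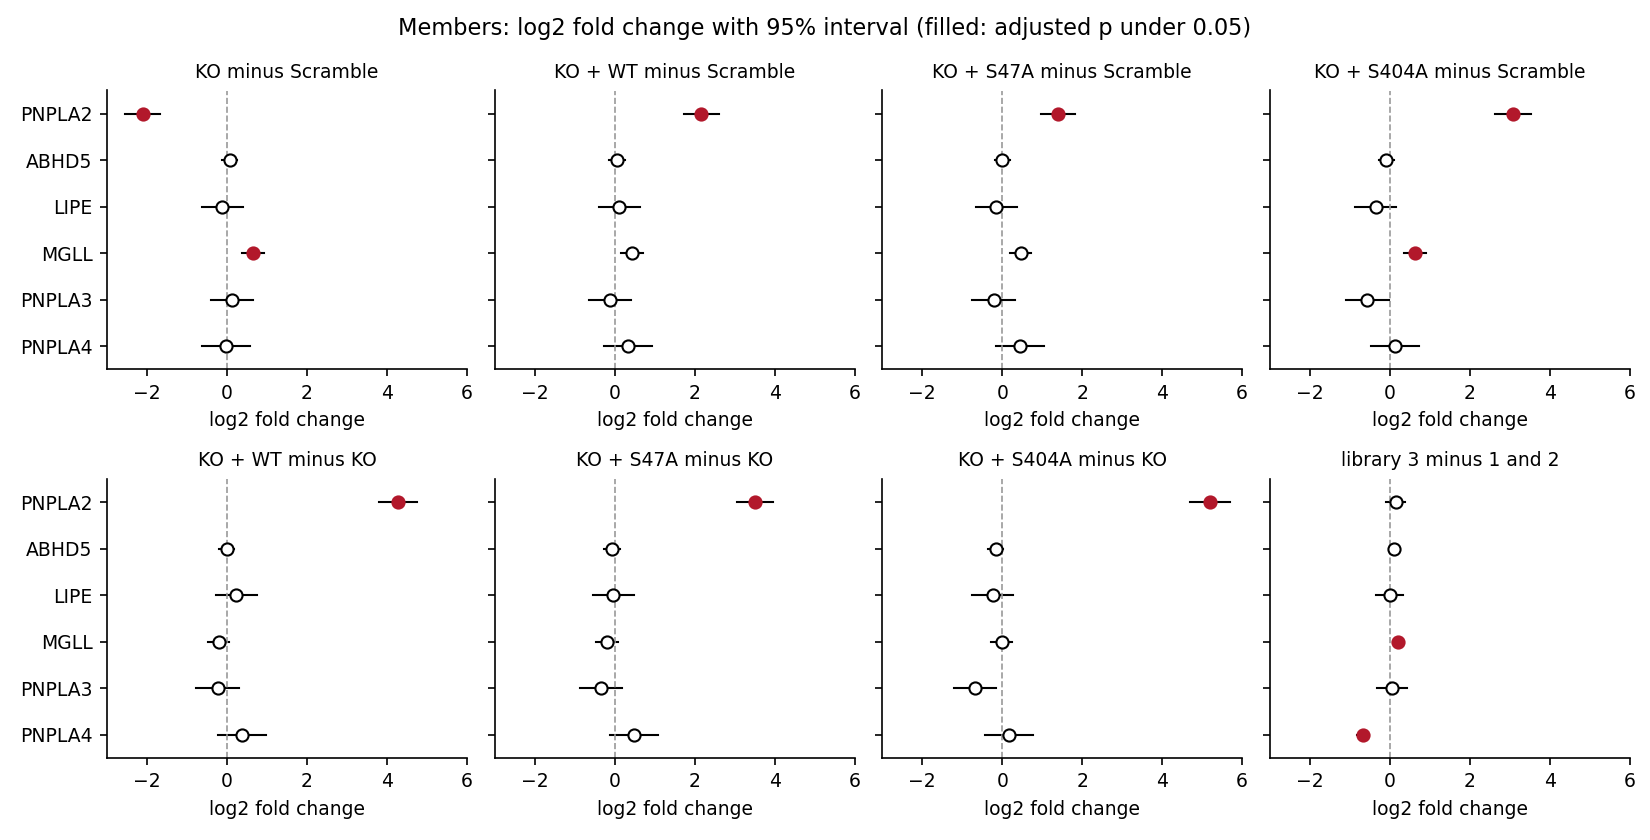
Log2 fold changes of the 6 tested members with 95% intervals in 7 comparisons between lines and for library 3 against libraries 1 and 2, with filled points where the adjusted p is under 0.05. PNPLA2 is called in all 7 line comparisons shown, MGLL in KO and KO_S404A against Scramble, and MGLL and PNPLA4 in the library comparison.

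The genes whose levels ran most like each member's were looked up as a description, by Pearson's correlation of log2 CPM over the 15 libraries. These points share lines, library numbers and depth, so no test is given. For PNPLA2 they were SLC12A9 (r = 0.83), KAT2B (0.79) and CARD14 (0.77), and for ABHD5 NGLY1 (0.91), MOBKL1B (0.88) and SMYD2 (0.88). For MGLL they were IQGAP1 (0.97), HERC3 (0.96) and BEND4 (0.95), and for PNPLA4 FTL (0.99), ZNF277 (0.98) and CHMP2A (0.98). The low genes had looser matches, UQCC (0.85), KIAA1715 (0.84) and NOP10 (0.83) for LIPE and UBAP1 (0.74), FAM108B1 (0.70) and IMMP1L (0.69) for PNPLA3. Among the members the correlation farthest from 0 was that of PNPLA2 with PNPLA3 (r = -0.64), and that of PNPLA2 with ABHD5 was -0.38, again over the 15 libraries.

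The remaining genes of neutral lipid breakdown were taken as 4 lists. Of 5 other PNPLA genes 3 could be tested (PNPLA6, PNPLA7 and PNPLA8), of 11 droplet coat proteins and ATGL inhibitors 6, of 9 other lipid hydrolases 7, and of 19 genes that signal to ATGL or govern its turnover 18. In KO minus Scramble the median log2 fold changes were -0.15, 0.24, -0.11 and -0.01, against 0.02 over all tested genes. In the first 3 lists edgeR, without a block and with all libraries, called 0 genes in each of the 10 comparisons between lines. At an unadjusted p under 0.05 there were 0 in KO minus Scramble. In KO_S47A minus KO there were 2 of the 3 tested PNPLA genes and 1 hydrolase. There was 1 hydrolase each in KO_S47A minus Scramble, KO_S404A minus Scramble, KO_S47A minus KO_WT and KO_S404A minus KO_WT. In KO_S404A minus KO_S47A there was 1 coat or inhibitor gene. DESeq2 called 0 in KO minus Scramble and 1 elsewhere, ABHD6, a monoglyceride lipase, lower in KO_S404A than in Scramble (-0.32, adjusted p = 0.0197, where DESeq2 called 6.28% of all genes).

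PLIN3, the ubiquitous perilipin, had a transcript level of 97.3 ± 10.3 CPM in Scramble and 109 ± 6.10 CPM in KO (SD, n = 3 each). HILPDA, a hypoxia-induced inhibitor of ATGL, was at 36.7 ± 7.02 CPM in Scramble and 48.9 ± 11.4 CPM in KO. PLIN2, the usual coat protein of non-adipose droplets, had 125 counts over all 15 libraries, and FABP5 164. PLIN1, the adipocyte perilipin, had 72 counts and PLIN5 7, and neither was tested. PLIN4 was at 1.35 ± 0.87 CPM in Scramble and 0.44 ± 0.33 CPM in KO. These genes were picked for naming with their values known.

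Blocking on the library number added calls in these lists. In KO minus Scramble it called HILPDA (0.41, adjusted p = 0.0454) and PLIN4 (-1.71, adjusted p = 0.00828), beside 8.29% of all genes. In KO_S47A minus KO it called PNPLA7, a lysophospholipase (0.83, adjusted p = 0.0045), PNPLA8, a phospholipase (0.53, 0.0127), PLIN4 (1.26, 0.0243) and LIPA, the lysosomal acid lipase (0.35, 0.0223), all higher, and PLIN3 (-0.27, 0.0425) and PDE3B (-0.50, 0.0167) lower, beside 22.1% of all genes. In KO_S47A minus Scramble it called PNPLA8 (0.42, adjusted p = 0.0374) higher, and NCEH1, a cholesterol ester hydrolase (-0.35, 0.0123) and PDE3B, a phosphodiesterase that lowers cyclic AMP (-0.72, 0.00206), lower, beside 19.5%. In KO_WT minus Scramble it called ADRB1 (-0.67, adjusted p = 0.0393) besides NPR1. All of these p-values are edgeR's.

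Without the libraries numbered 3, PLIN4 was called in KO minus Scramble (-1.53, adjusted p = 0.0385) and HILPDA was not. In KO_S47A minus KO that fit called PNPLA7 (0.93), PNPLA8 (0.72), PLIN4 (1.21), LIPA (0.36) and ARF1 (0.27) higher and HILPDA (-0.42), NCEH1 (-0.31) and PDE3B (-0.66) lower, and PLIN3 was not called. In KO_S47A minus Scramble it called NCEH1 (-0.43) and PDE3B (-0.86) lower, and PNPLA8 was not called. The shares of all genes called in these fits are those given above for PNPLA2.

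In the signalling list, 1 gene rose and 1 fell in KO minus Scramble, 1 rose in KO_WT minus Scramble and 1 rose and 1 fell in KO_S404A minus Scramble, and 0 were called in KO_S47A minus Scramble (3 at an unadjusted p under 0.05, 0 by DESeq2). DESeq2 called 2 more, ADRB1 lower in KO_WT (-0.68, adjusted p = 0.0168) and PRKAA2 lower in KO_S404A (-0.36, adjusted p = 0.0151), both against Scramble. PRKAA2, a catalytic subunit of the energy sensor AMPK, which phosphorylates ATGL, was at 22.2 ± 1.93 CPM in Scramble and 16.6 ± 0.92 CPM in KO (SD, n = 3 each), a log2 fold change of -0.42 (SE 0.10, adjusted p = 0.0387 with edgeR). That call ended without Scramble library 1 (0.127) or 3 (0.13), or without KO library 1 (0.0877), 2 (0.18) or 3 (0.104), without all libraries numbered 3 (0.0857), and in a fit of the 2 lines alone (0.0629). ADRB1, the beta-1 adrenergic receptor, was at 2.96 ± 0.47 CPM in Scramble and 1.73 ± 0.03 CPM in KO_S404A, a log2 fold change of -0.77 (SE 0.19, adjusted p = 0.0424 with edgeR). It ended in 11 of 15 fits that left out 1 library, with adjusted p up to 0.158, the exceptions being KO_WT libraries 1 to 3 and KO_S47A library 3, and also without the libraries numbered 3 (0.0928), in a fit of the 2 lines alone (0.23) and with low genes kept (0.0555).

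NPR1, the receptor for natriuretic peptides, which stimulate lipolysis in fat cells, rose from 0.07 ± 0.06 CPM in Scramble to 0.39 ± 0.03 CPM in KO, 0.38 ± 0.17 CPM in KO_WT and 0.39 ± 0.08 CPM in KO_S404A (SD, n = 3 each). The log2 fold changes were 2.43 (SE 0.56, adjusted p = 0.033), 2.37 (SE 0.56, 0.0331) and 2.41 (SE 0.56, 0.0331 with edgeR). KO_S47A was at 0.24 ± 0.01 CPM, with its libraries from 0.222 to 0.244 CPM against at most 0.137 CPM in Scramble, a log2 difference of 1.70 that was not called (adjusted p = 0.123 with edgeR). These levels are near the limit that 3 counts set, and the 3 calls share the Scramble libraries. They ended in 8, 9 and 9 of 15 fits that left out 1 library, with adjusted p up to 0.155, 0.146 and 0.14. In each comparison these included Scramble libraries 1 and 2, KO libraries 2 and 3, KO_WT library 2 and KO_S47A libraries 1 and 2. KO library 1 ended the first 2 calls, KO_WT library 3 the second, and KO_S404A libraries 1 and 2 the third. All 3 also ended when low genes were kept (0.0508, 0.0511 and 0.052), the first and the third in fits of the 2 lines alone (0.0802 and 0.192), and the second without the libraries numbered 3 (0.0621). In the fit of KO_WT and Scramble alone NPR1 did not pass the low count filter and was not tested.

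**Figure D5:**
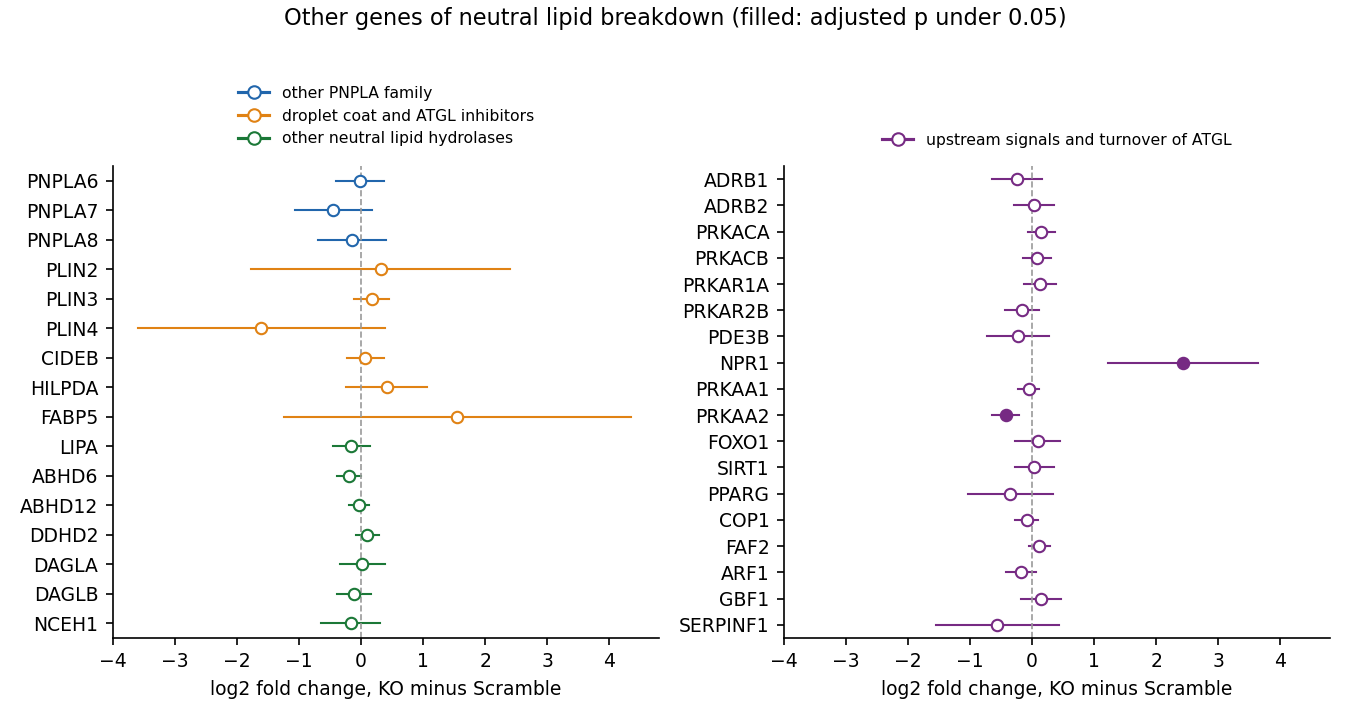
Log2 fold change of KO minus Scramble with 95% interval for the 34 tested genes of the 4 lists, with filled points where the adjusted p is under 0.05. NPR1 (2.43) and PRKAA2 (-0.42) are the filled points, and the widest intervals belong to the low genes FABP5, PLIN2 and PLIN4.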

How the data were processed

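The authors deposited for each of the 15 libraries raw read counts by gene beside FPKM values. FPKM recomputed from the counts differed from the deposited ones by a relative 7.11e-15 or less, and only the gene lengths they imply were used. The submitters' processing notes name STAR and CASAVA. The sources used here do not give the genome build, annotation or strand setting, and overlapping or antisense genes cannot be told apart where reads are counted without strand. The 5 entries of unassigned reads entered neither library sizes nor tests.

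The counts were filtered with filterByExpr, scaled by TMM and fitted with edgeR 4.0.16 in R 4.3.3, with 1 mean per line and 1 spread over all 15 libraries (10 residual degrees of freedom). The SE was approximated from the fold change and the F statistic, and 95% intervals were built from it. Adjusted p-values are edgeR's unless DESeq2 (1.42.0) is named. Scripts were tested on simulated data. The precision is set by 40846694 to 64345775 counts in genes per library and 3 libraries per line. No 2 libraries of a line agreed within sampling noise (chi-square per degree of freedom 8.11 to 239), and all were kept. Between libraries 1 and 2 this value was 148 in KO_S404A and 40.0 in KO, and 8.11 to 9.95 in the other lines.

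The members, the lists and the tests were chosen with earlier results of these data known. All 7 members are named. Their fold changes are printed for KO minus Scramble, for each comparison in which they are called and, for PNPLA2, for all 10. Fold changes of MGLL, PNPLA3 and PNPLA4 in further comparisons were added after their values were seen. Of each list, up to 4 genes called in any comparison between lines are named, and other list genes were named with their values known. Likeness was read among genes averaging 5 CPM or more, on log2 CPM with a prior count of 2.

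The labels number the libraries of each line 1 to 3. Deviations from the line means correlated above 0.1 in 28 of 30 same-numbered pairs (0.02 to 0.68) and in all 3 pairs of 8 of the 10 comparisons, so the numbers were taken to pair the libraries there, a pairing that comes from these data. Alternatives were RLE scaling, DESeq2, no filter, the replicate block, only the 2 lines compared, no libraries numbered 3, each library left out, and, for PNPLA3, the median of chromosome 22 taken off. Motif sequences were translated from GENCODE 29 with Biopython 1.88. Some of the marker genes chosen for the cell type check are not reported here.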

Additional observations from a re-analysis of the deposited data

How the results depend on the processing

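The calls of PNPLA2 against KO and against Scramble and its directions were the same under every alternative run. With the replicate block, the members called numbered 2 instead of 1 in KO_S47A minus KO, 2 instead of 1 in KO_WT minus Scramble and 3 instead of 1 in KO_S47A minus Scramble. Without the libraries numbered 3 the same counts were 2, 2 and 3. DESeq2 gave 2 in KO_WT minus Scramble and 2 in KO_S47A minus Scramble. Fits of the 2 lines alone gave 1 in KO_S404A minus Scramble and 0 in KO_S404A minus KO_S47A. Leaving out 1 library gave 1 to 2 members called in KO minus Scramble, KO_WT minus Scramble, KO_S47A minus Scramble and KO_S404A minus Scramble, 0 to 1 in KO_S404A minus KO_S47A and 1 to 3 for library 3 against the others. The shares of all genes called in these fits and in those of the 2 lines alone are not given here. Their counts of members can therefore not be set against the background. Signs reversed for PNPLA4 in KO minus Scramble without Scramble replicate 1 (0.07), Scramble replicate 2 (0.06) and KO replicate 3 (0.11; range over single libraries left out -0.24 to 0.11), for PNPLA3 in KO_WT minus Scramble without Scramble replicate 1 (0.036; range -0.30 to 0.036) and with the chromosome 22 median taken off (0.27), and for PNPLA3 in KO_S47A minus Scramble with that median taken off (0.12). None of these was called. The cause was not tested. Of the single-gene values, 547 kept direction and side of the threshold, 66 lost a call and 13 gained one.

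The replicate block changed no other call of a member. In KO_S404A minus KO the libraries numbered 1, 2 and 3 correlated at 0.17, 0.02 and 0.51. In KO_S404A minus Scramble they correlated at 0.28, 0.07 and 0.57. The pair numbered 2 was not above 0.1, so the numbers were not taken to pair the libraries in these 2 comparisons. The block moved the genes called from 3 to 14 and from 443 to 1522, and 2 and 4 of 6 libraries correlated best with their own number. That count was 3 of 6 in KO_WT minus KO and in KO_S47A minus KO, which were taken as paired. It was 4 or 5 of 6 in the other comparisons taken as paired. The pairing behind the block calls in KO_S47A minus KO is therefore weak by this count. In KO_S404A minus Scramble the block called ABHD6 (-0.30, adjusted p = 0.0445 with edgeR) and PRKAA2 (-0.34, 0.0315), and kept ADRB1 (-0.77, 0.0195) and NPR1 (2.48, 0.0155). The calls of PRKAA2, ADRB1 and NPR1 in the fit without the block were all kept with the block and by DESeq2. Over all genes the block moved the count from 383 to 1181 in KO minus Scramble, from 4 to 15 in KO_WT minus KO, from 1 to 3150 in KO_S47A minus KO, from 494 to 1429 in KO_WT minus Scramble and from 544 to 2783 in KO_S47A minus Scramble, and DESeq2 gave 693, 8, 33, 868 and 1093. For KO_S404A minus KO and minus Scramble DESeq2 gave 8 and 894. Depth limits LIPE, PNPLA3, PLIN2, FABP5 and NPR1, and G0S2 could not be tested.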

Other observations

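The 3 tested genes of the 5 other PNPLA genes were also lower in the libraries numbered 3, as PNPLA4 was, while PNPLA2 (0.14) and PNPLA3 (0.05) were not called. PNPLA6 (neuropathy target esterase) fell by 0.40, PNPLA7 by 0.59 and PNPLA8 by 0.54 on the log2 scale in library 3 against libraries 1 and 2 (adjusted p = 2.06e-05, 0.000532 and 0.000137 with edgeR), 3 of 3 tested, with a median of -0.54 beside -0.02 over all tested genes and 46.1% of all genes called. Among the droplet coat genes and ATGL inhibitors PLIN4 fell by 2.41 (adjusted p = 2.4e-06), and HILPDA (0.67, adjusted p = 3.8e-06), PLIN3 (0.21, 0.0109) and CIDEB (0.21, 0.0182) rose. Of the other hydrolases NCEH1 (0.49, adjusted p = 3.96e-06) and DAGLB (0.24, 0.00238) rose and LIPA fell by 0.24 (0.00661). In the signalling list 5 genes rose and 5 fell, among them SERPINF1, the secreted ligand PEDF (0.89, adjusted p = 0.000748), and PPARG, the adipogenic nuclear receptor (-0.70, 7.78e-05). These values are reported with no explanation.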
